A study of Mus musculus with 6 samples.

Results

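The angiopoietin-like genes *Angptl1*, *Angptl2*, *Angptl4*, *Angptl6* and *Angptl7* were examined in sorted mouse microglia with and without functional Bhlhe41. Every noncontrol probe whose transcript accession maps to one of these symbols was taken, which gave 5 probes, 1 for each gene, of 56605 probes and 23462 named genes on the array. The family was chosen by the measured difference of *Angptl7* between the genotypes in these samples, and the other members followed by name. The values of *Angptl7* are therefore given as a description with no p, and where it is counted among called probes the count restates that choice and is no test of it.

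Microglia sorted as live CD45lo Cx3cr1+ CD11b+ cells from brains of mice aged 3 months were compared between 3 samples labelled Bhlhe41 dTomato-Cre/+ (B41HET) and 3 labelled Bhlhe41 dTomato-Cre/dTomato-Cre (B41KO). The dTomato-Cre allele is a knock-in that makes no Bhlhe41 protein, and cells that use the *Bhlhe41* promoter make the fluorescent protein dTomato and the recombinase Cre from it. The control samples carry 1 such allele too, both genotypes therefore express dTomato and Cre, and no wild type sample was analysed here. The levels are not matched, since the B41KO samples carry the allele on both copies of the gene. By flow cytometry the paper reports higher dTomato in B41KO than in B41HET microglia. The mice were on the C57BL/6 background, and the study's methods describe every sample as a pool of many mice, whereas the labels speak of 3 mice per genotype. P-values therefore measure only the spread between these samples.

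Angiopoietin-like proteins are secreted glycoproteins built like the angiopoietins, with an N-terminal coiled coil and, in the members studied here, a C-terminal fibrinogen-like domain, but they are not ligands of the angiopoietin receptor Tie2. Angptl4 inhibits lipoprotein lipase and is induced by fatty acid sensing nuclear receptors and by hypoxia. Angptl2 is a proinflammatory ligand of integrin alpha5 beta1 and of leukocyte immunoglobulin-like receptors, Angptl6 is known as a growth factor with metabolic effects, Angptl1 as an inhibitor of angiogenesis, and Angptl7 as a protein of the cornea and the outflow tissue of the eye. Bhlhe41 is a basic helix-loop-helix repressor that binds E-boxes, above all the palindrome CACGTG.

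Because the factor missing from the B41KO microglia binds E-boxes, the sequence before the start of *Angptl7*, on which the family was chosen, and of *Angptl1*, the member with the next largest difference among those detected, is shown with every CANNTG word in capitals. The order of *Angptl1* ahead of *Angptl6* held as analysed (-0.53 against -0.49) but not under every alternative processing described below. Windows of 300 bases from RefSeq on GRCm38.p6, 250 before and 50 after the start, were found for *Angptl1*, *Angptl2*, *Angptl6* and *Angptl7*, and only the 250 bases before the start are printed. The *Angptl7* stretch lies at chr4:148500463-148500712 on the minus strand and the *Angptl1* stretch at chr1:156838773-156839022 on the plus strand.
*Angptl7*: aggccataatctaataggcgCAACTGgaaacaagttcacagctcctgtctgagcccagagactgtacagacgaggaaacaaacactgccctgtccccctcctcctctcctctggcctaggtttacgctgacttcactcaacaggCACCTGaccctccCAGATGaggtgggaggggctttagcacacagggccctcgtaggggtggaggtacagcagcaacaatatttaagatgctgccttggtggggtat
*Angptl1*: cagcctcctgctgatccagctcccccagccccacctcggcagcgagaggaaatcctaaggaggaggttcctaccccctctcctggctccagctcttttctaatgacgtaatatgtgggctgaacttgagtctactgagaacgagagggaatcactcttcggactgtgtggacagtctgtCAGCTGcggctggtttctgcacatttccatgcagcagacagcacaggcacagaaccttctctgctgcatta

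CACGTG was absent from the windows of all 4 members, and 7.15% of the 32851 windows in the table hold it. The *Bhlhe41* window holds 1 copy. The wider word CANNTG, which includes CACGTG and reads the same on both strands, occurs in 72.3% of all windows. In the *Angptl7* window CAACTG begins 230 bases before the start, CACCTG begins 106 bases before it and CAGATG begins 93 bases before it. Such a count of 3 or more is found in 17.6% of all windows. *Angptl2* also has 3, each of them CAGCTG. *Angptl1* has 1 copy of the word, and so does *Angptl6*. These matches describe letters within short windows and are no evidence of binding or of its absence.

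The scanner software flagged 70.1% to 75.5% of the probes of each array as well above background and none as saturated. Signals are log2 intensities after quantile normalization, and precision is limited by how few arrays there are. Calling a probe required an adjusted p no higher than 0.05 from limma with Benjamini-Hochberg adjustment across all probes, together with a difference of at least 0.5 on the log2 scale. The targeted transcript does not check the labels. For *Bhlhe41* the brighter probe read 7.95, 7.87 and 7.65 in B41HET and 8.56, 7.84 and 8.21 in B41KO, and the other probe read 7.86, 7.58 and 7.40 against 7.96, 7.91 and 7.95. Neither was lower in the samples labelled B41KO. All 10 microglial markers examined, among them *Cx3cr1*, *P2ry12* and *Tmem119*, were well above background on all 6 arrays, with a median difference of -0.01. Of these *Fcrls*, an Fc receptor-like gene, was called lower (-0.76, adjusted p = 0.00584 from limma), and 5 of the 10 had an unadjusted p below 0.05. *P2ry12* differed by -0.29 (adjusted p = 0.0607) and *Cx3cr1* by -0.25 (adjusted p = 0.137), each with every B41KO sample below every B41HET sample, and neither was called. *Csf1r* went the other way, by 0.31 (adjusted p = 0.164 from limma), with every B41KO sample above every B41HET sample, and was not called. The difference was negative for 5 of the 10 markers. The part of these differences in those of the angiopoietin-like genes was not tested.

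*Angptl7* was about 3 times lower in the samples labelled B41KO. Its log2 signals were 5.95, 5.95 and 5.92 in the B41HET samples and 4.40, 4.44 and 4.25 in the B41KO samples. All 3 B41KO samples lay below all 3 B41HET samples, with a gap of 1.48 between the nearest, while the samples of a genotype differed little among themselves (SD 0.02 in B41HET and 0.10 in B41KO, n = 3 each). The difference of the means was -1.58 on the log2 scale (standard error 0.08), a 2.98-fold lower signal. The probe was dim but well above background on all 6 arrays. Its processed intensity before normalization between arrays was 58.8 to 69.2 in B41HET and 18.0 to 22.6 in B41KO, where the lowest intensity flagged as well above background on any array was 6.1 to 8.9. With each gene represented by its brightest probe, *Angptl7* ranked 113 from the lowest difference among 23462 genes, and 63 among the 17222 genes well above background on all 6 arrays. With normexp background correction, which adds an offset of 50 to every intensity, the difference was -0.69 in place of -1.58, and it kept its direction under all 14 alternatives computed.

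**Figure D1:**
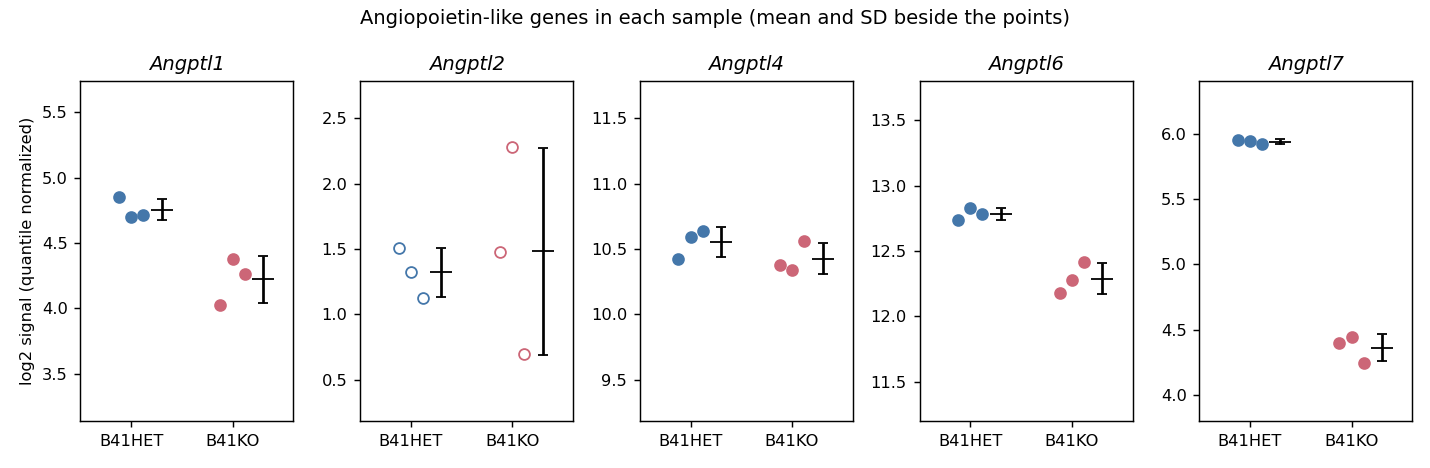
Log2 signal (quantile normalized) of the 5 angiopoietin-like genes in each sample, with the mean and SD (n = 3) beside the points. Each panel spans the same 2.6 log2 units, and open points were not well above background. *Angptl7* separates the genotypes by 1.48, *Angptl1* and *Angptl6* by 0.33 and 0.32, and the genotypes overlap for *Angptl4* and *Angptl2*.

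*Angptl6* and *Angptl1* also lay lower in every B41KO sample, and each missed the calling rule on 1 of its parts. *Angptl6*, the growth factor member, gave log2 signals of 12.73, 12.83 and 12.78 in the B41HET samples and 12.18, 12.28 and 12.41 in the B41KO samples. The genotypes did not overlap and their nearest samples were 0.32 apart. The difference was -0.49 (standard error 0.09, adjusted p = 0.0339 from limma), past the threshold on p and just short of the one on size, and the 95% interval ran from -0.71 to -0.28. The adjusted p rose above the threshold when any 1 sample other than B41KO replicate 3 was left out, between 0.0881 and 0.121, and over all 14 alternatives it ran from 0.00228 to 0.121.

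*Angptl1*, the antiangiogenic member, gave log2 signals of 4.85, 4.70 and 4.72 in the B41HET samples and 4.03, 4.38 and 4.26 in the B41KO samples. Again the genotypes did not overlap, with B41KO replicate 1 the lowest sample. The difference was -0.53 (standard error 0.11, adjusted p = 0.0520 from limma), large enough but just above the threshold on p, with a 95% interval from -0.81 to -0.26. The probe is dim, with processed intensities of 25.2 to 30.7 in B41HET and 15.0 to 21.6 in B41KO, and with normexp background correction its difference was -0.16. Over the 14 alternatives its adjusted p ran from 0.0265 to 0.149.

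*Angptl4*, the lipase inhibitor, was clearly detected and its genotypes overlapped. Log2 signals were 10.43, 10.60 and 10.64 in the B41HET samples and 10.38, 10.34 and 10.56 in the B41KO samples. The difference was -0.13 (standard error 0.10, adjusted p = 0.518 from limma), and its 95% interval from -0.38 to 0.12 leaves out changes of 0.5 in either direction. *Angptl2*, the integrin ligand, failed to exceed background clearly on all 6 arrays. Its log2 signals were 1.51, 1.33 and 1.13 in B41HET and 1.48, 2.28 and 0.69 in B41KO, so that no difference between the genotypes is read from it.

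Of the 5 probes 1 met the calling rule, that of *Angptl7*, and 5.09% of all 56601 probes tested did. Every B41KO sample lay below every B41HET sample for 3 of the 5 probes, which was so for 15.3% of the 56559 probes with values on all arrays. As *Angptl7* was chosen on this contrast, nothing about the family is read from these counts. The arrays measure a sorted population as a whole, so fewer cells of a type and less RNA per cell cannot be told apart.

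**Figure D2:**
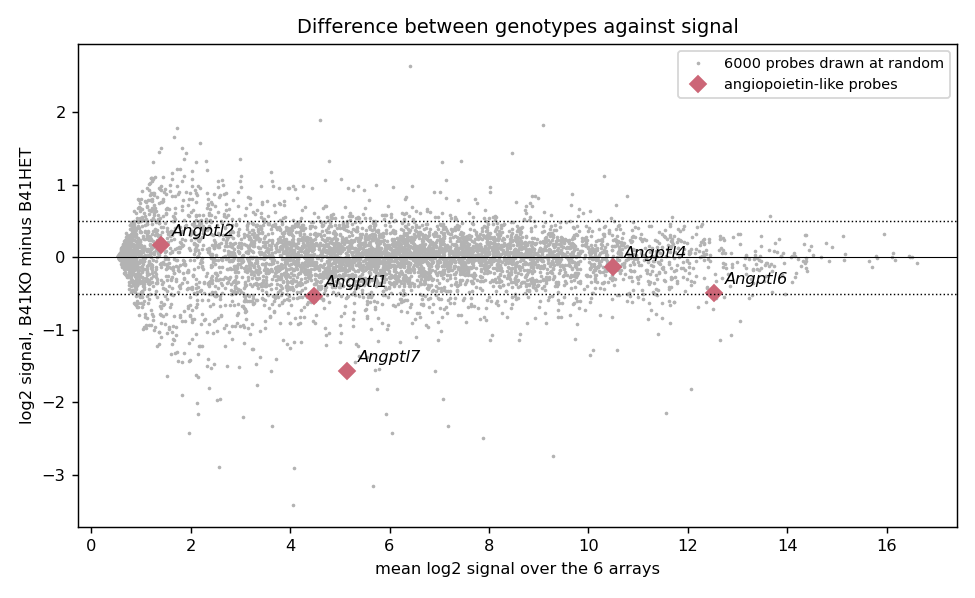
Difference between the genotype means (log2, B41KO minus B41HET) against the mean log2 signal over the 6 arrays, for the 5 angiopoietin-like probes (diamonds) and 6000 other probes drawn at random (grey). Dotted lines mark 0.5 in either direction. *Angptl7* lies at -1.58, *Angptl1* at -0.53 and *Angptl6* at -0.49, at very different signals.

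Several of these genes lie inside or beside another gene. According to the RefSeq table, the *Angptl7* interval lies within that of *Mtor*, the kinase of the growth control pathway, *Angptl1* within *Ralgps2* and *Angptl2* within *Ralgps1*, both guanine nucleotide exchange factors for Ral. *Mtor* gave log2 signals of 8.36, 8.34 and 7.95 in B41HET and 8.39, 8.33 and 8.10 in B41KO, so that the means were 0.06 apart (standard error 0.15, adjusted p = 0.857), and the 95% interval from limma ran from -0.30 to 0.42. The 3 *Ralgps2* probes differed by -0.27, 0.11 and -0.10, the lowest adjusted p being 0.384, and the genotypes overlapped on each. The *Ralgps1* probes differed by -0.07 and 0.03, and neither was called.

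*Angptl6* overlaps *Shfl*, an interferon-induced inhibitor of ribosomal frameshifting, whose probes differed by 0.04 and 0.08 (adjusted p = 0.743 and 0.689 from limma). *Ppan*, a ribosome biogenesis gene on its other side, differed by 0.11 (adjusted p = 0.689). Beside *Angptl4* lie *Kank3*, with a difference of 0.20 (adjusted p = 0.332), and *Rab11b*, a GTPase of recycling endosomes. The 3 *Rab11b* probes differed by -0.52, -0.49 and -0.29 with adjusted p of 0.0959, 0.0457 and 0.0634, and every B41KO sample lay below every B41HET sample on each of them, but none met both parts of the rule.

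**Figure D3:**
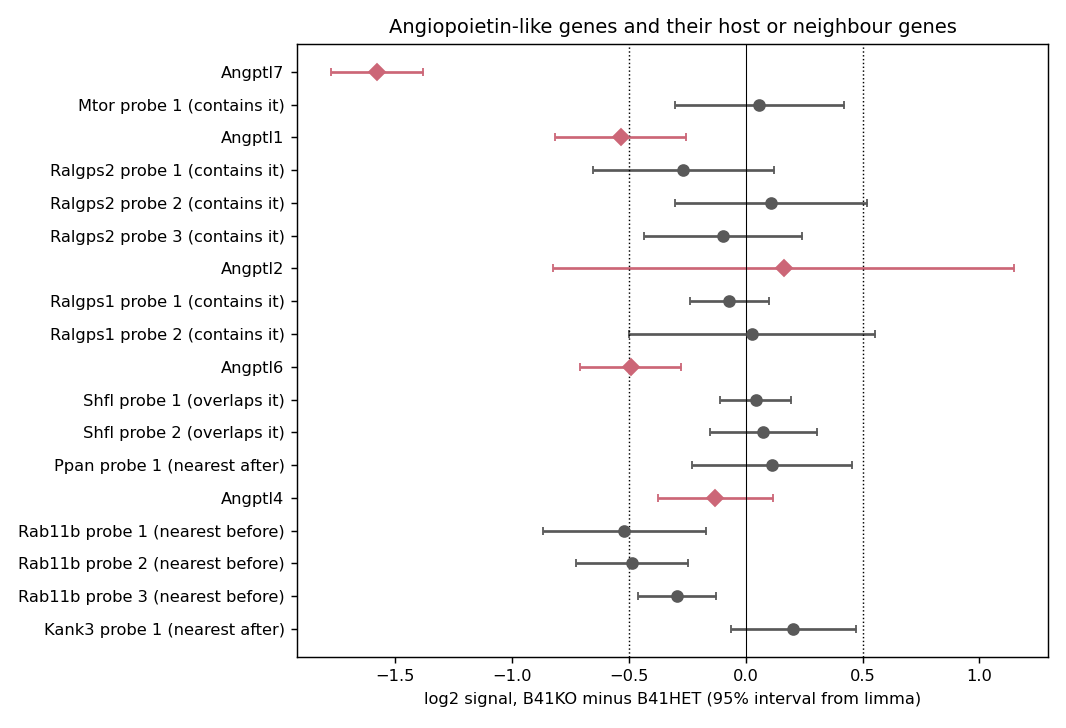
Difference in log2 signal (B41KO minus B41HET) with its 95% interval from limma for the angiopoietin-like genes (diamonds) and for each probe of their host or neighbour genes (circles). The *Mtor* interval spans 0, at 0.06, while *Angptl7* inside it lies at -1.58, and the 3 *Rab11b* probes lie below 0 beside *Angptl4*.

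The genes around these proteins were described from 4 lists, with the brightest probe standing for a gene. Across all 23462 genes 1.44% were called higher and 4.05% lower in the B41KO samples, with a median difference of 0.01. None of 14 lipase partners was called by limma (6 had an unadjusted p below 0.05), and their median difference was -0.03. *Cd36*, a fatty acid transporter, lay lower in every B41KO sample without being called (mean log2 signals 3.30 and 2.56, adjusted p = 0.0670) and was well above background on the 3 B41HET arrays and on no B41KO array. *Sdc1*, a heparan sulfate proteoglycan, differed by -0.42 on its brightest probe (adjusted p = 0.0877), again with every B41KO sample lower. Another *Sdc1* probe differed by -0.43 with overlapping genotypes (adjusted p = 0.372), and 1, not well above background on any array, by 0.48. Lipoprotein lipase itself, *Lpl*, the enzyme that Angptl4 inhibits, had log2 signals of 6.12 ± 0.08 (SD, n = 3) in B41HET and 6.03 ± 0.08 (SD, n = 3) in B41KO, a difference of -0.09 (adjusted p = 0.603). Of its other probes 1 differed by -0.01 and 1 by -0.40 (adjusted p = 0.0976, every B41KO sample lower), and none was called. *Lrp1*, a lipoprotein receptor, differed by 0.10, *Lmf1*, which matures the lipase, by -0.44 on its brighter probe (adjusted p = 0.0401, below the size threshold) but by 0.10 on the other (adjusted p = 0.562), and *Sel1l*, which helps it fold, by 0.37 (adjusted p = 0.0947). *Apoc2*, the lipase's activator, depended on the probe, since the brighter one differed by -0.38 and was not called (adjusted p = 0.0673) and the other fell by 1.82 (adjusted p = 0.00184).

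Of 18 lipid and hypoxia regulators and their targets, *Fkbp5* alone was called. This glucocorticoid-induced cochaperone rose by 0.54 (standard error 0.10, adjusted p = 0.0342), from 8.64 ± 0.12 (SD, n = 3) in B41HET to 9.18 ± 0.08 (SD, n = 3) in B41KO. Its other probe differed by 0.39 and was not called (adjusted p = 0.0986). For *Tsc22d3*, another glucocorticoid target, the sign depended on the probe, with -0.42 on the brighter (adjusted p = 0.0833) and 0.04 on the other (adjusted p = 0.847). *Rxra*, the partner of the fatty acid sensing receptors, differed by 0.22 (adjusted p = 0.125) and *Nr3c1*, the glucocorticoid receptor, by -0.08 on its brighter probe (adjusted p = 0.604) and 0.10 on the other, and the median over the list was -0.04. The lipid droplet gene *Plin2*, like *Angptl4* a target of the fatty acid sensing receptors, differed by -0.27 on its brighter probe (adjusted p = 0.131) and by 0.15 on the other (adjusted p = 0.288). *Hif1a*, a regulator of the hypoxia response, differed by 0.51 (adjusted p = 0.0586).

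Of 9 receptors, 2 were called lower and none higher, with a median of -0.01. *Itga5*, the alpha5 integrin chain that binds Angptl2, fell by 0.84 (standard error 0.07, adjusted p = 0.00498), from 9.72 ± 0.04 (SD, n = 3) to 8.88 ± 0.03 (SD, n = 3). Its partner *Itgb1* differed by 0.07 (adjusted p = 0.699). *Lilrb4a*, an inhibitory receptor of myeloid cells, fell by 1.97 (standard error 0.15, adjusted p = 0.00455), from 8.00 ± 0.21 (SD, n = 3) to 6.03 ± 0.20 (SD, n = 3). *Pirb*, also on the list, differed by -0.49 and was not called (adjusted p = 0.141 from limma), with every B41KO sample lower. *Mcam*, an adhesion molecule reported to bind Angptl2, differed by -0.01 (adjusted p = 0.941), and *Itgb3* by 0.27 (adjusted p = 0.303) on its brighter probe and -0.02 on the other. The angiopoietin receptors *Tek* and *Tie1* did not clearly exceed background on any array.

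Of 16 other proteins with a fibrinogen-like domain, 2 were called lower and none higher, with a median of 0.01, and 6 were not well above background on any array. Both called genes were ficolins, lectins that start the complement cascade. *Fcnb* fell by 2.39 (standard error 0.24, adjusted p = 0.00814) and was well above background on all B41HET arrays and on 2 of the 3 B41KO arrays. *Fcna* fell by 1.23 (standard error 0.13, adjusted p = 0.0103). Myeloid genes of other cell types were lower beside both ficolins and *Lilrb4a*, 7 of 8 neutrophil and 4 of 8 border macrophage genes being called lower, and their part in these differences was not tested. The brightest genes that were not called were *Angpt2*, a Tie2 ligand, which differed by -0.24 (adjusted p = 0.560), the elastic fibre protein *Mfap4* by 0.21 (adjusted p = 0.389) and the matrix protein *Tnxb* by 0.11 (adjusted p = 0.605). With the slide row of the arrays as a block in limma, 0 genes on the 4 lists were called in place of 5 (15 had an unadjusted p below 0.05).

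**Figure D4:**
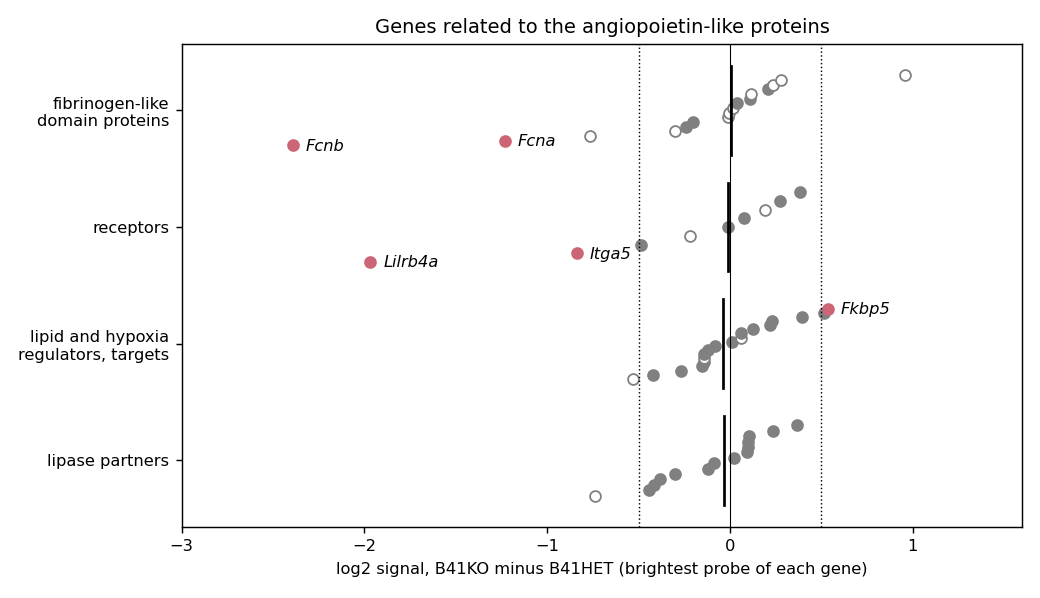
Difference in log2 signal (B41KO minus B41HET) of each gene in the 4 related lists, by its brightest probe. Coloured points were called, open points were not well above background on every array, black bars are list medians and dotted lines mark 0.5. The medians lie between -0.04 and 0.01, and *Fcnb*, *Lilrb4a*, *Fcna*, *Itga5* and *Fkbp5* stand apart from them.

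Some markers of other cell types were lower beside *Angptl7*, and their part in its difference or in those of *Angptl1*, *Angptl6* and the listed genes was not tested. The gate for CD45lo Cx3cr1+ CD11b+ cells is one that should leave out most neutrophils and cells that are not myeloid. Of 8 neutrophil genes 7 were called lower, all 8 lay lower in every B41KO sample, the median difference was -2.37, and their summed signal was 23151 to 25950 in B41HET and 3490 to 3966 in B41KO. Of 8 border macrophage genes 4 were called lower, all 8 had an unadjusted p below 0.05 and lay lower in every B41KO sample, and the median difference was -1.14. That median rests partly on signals near background, since 5 of the 8 were well above background on all 6 arrays, *Lyve1* and *Mrc1* on no B41KO array and *F13a1* on 1. Their sums, 2487 to 2668 against 1693 to 1881, are mostly the signal of *Stab1*, which was not called (11.07 against 10.57). Of 8 endothelial genes 2 were called lower, *Ly6c1* and *Pecam1*, with sums of 1299 to 1370 against 539 to 628, but the defining genes *Cdh5*, *Emcn* and *Flt1* did not clearly exceed background on any of the 6. *Cldn5*, *Kdr* and *Vwf*, well above background on all arrays, differed by -0.13, -0.01 and 0.33 without being called, and the median over the endothelial list was -0.07. Of 10 genes of meningeal and perivascular fibroblasts *Igf2* alone was called lower, the median difference was 0.10, and the sums were 548 to 591 against 511 to 554, with *Lum* not clearly above background. Of 8 mural, 7 astrocyte, 6 neuron and 6 platelet genes none was called (at an unadjusted p below 0.05, 0, 1, 2 and 1 of them), and of 6 B cell genes *Cd79a* alone was called lower.

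The genes whose signals ran most like those of *Angptl7* were sought among 23439 others, each centred on its mean, by the root mean square difference over the 6 arrays. Nearest was *Odc1*, the ornithine decarboxylase of polyamine synthesis, at a root mean square difference of 0.03, with log2 signals of 9.42, 9.43 and 9.43 in B41HET and 7.92, 7.89 and 7.70 in B41KO. Then followed *Cndp1*, a carnosine dipeptidase, at 0.03, *Mmp14*, a membrane-bound matrix metalloproteinase, at 0.06, the transcriptional regulator *Nacc1* at 0.07 and *Lgals3*, galectin-3, at 0.07. Their differences ran from -1.62 to -1.47, and Pearson's r with *Angptl7* was 0.996 to 1.00 over the 6 arrays. The arrays fall into 2 genotypes, so such values mostly describe a shared difference between them. Other probes of the same genes differed less, by -0.76 for *Odc1*, by -0.77 and -0.42 for *Nacc1* and by -1.34 for *Lgals3*.

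**Figure D5:**
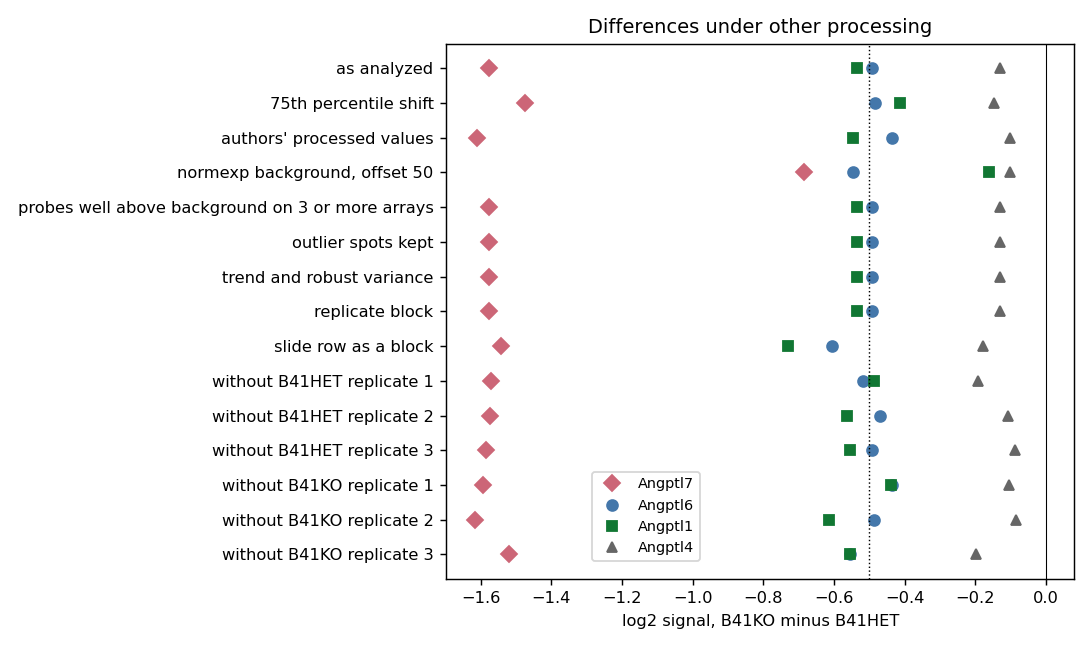
Difference in log2 signal (B41KO minus B41HET) of *Angptl7*, *Angptl6*, *Angptl1* and *Angptl4* as analyzed and under each of the 14 alternatives. The dotted line marks -0.5. *Angptl7* stays at or below -1.47 except with normexp background correction, where it is -0.69, and *Angptl6* and *Angptl1* lie on both sides of the line.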

How the data were processed

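RNA of sorted microglia was hybridised in 1 colour (Cy3) to SurePrint G3 Mouse arrays, all on 1 slide. The authors deposited scanner output from Feature Extraction 11.5.1.1, whose intensity values are background-subtracted and detrended within each array and not normalized between arrays. They also deposited processed log2 values, read as quantile normalized because the columns share their quantiles, with the scale not stated. These were used as an alternative.

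Noncontrol spots (59305 of 62976) were log2 transformed and quantile normalized, outlier-flagged spots (between 95 and 136 on each array) were then left out, and spots of a probe were averaged. Genotype was the only term in limma 3.58.1 (R 4.3.3, with version 1.17.8 of the data.table package) over all 6 samples, as the Methods name quantile normalization and limma, with Benjamini-Hochberg adjustment over all 56601 probes. The fit was tested on simulated data. The samples are labelled as biological replicates. Probes were named through RefSeq accessions without versions (33767 of 56605), and no coordinates are given for probes because the design is on mm9. Figures used matplotlib 3.10.9 in Python 3.11.15.

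Members and lists were chosen with earlier results of these data known. In each list, called genes and up to 3 of the brightest uncalled ones were named, with a few others chosen after their values were seen. Hosts or neighbours of each member with a probe and the 5 genes most like *Angptl7* were named too. Alternatives were a 75th percentile shift, the authors' values, normexp (offset 50, on median spot signals), leaving out probes flagged as above background on fewer than 3 arrays, outlier spots kept, trend and robust variance, the replicate number or the slide row as a block, no fold threshold, other probes for a gene and each sample left out.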

Additional observations from a re-analysis of the deposited data

How the results depend on the processing

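*Angptl7*, *Angptl6*, *Angptl1* and *Angptl4* kept a negative difference under all 14 alternatives. With samples left out in turn, *Angptl7* ran from -1.62 to -1.52, *Angptl6* from -0.55 to -0.44, *Angptl1* from -0.61 to -0.44 and *Angptl4* from -0.20 to -0.09. *Angptl2*, not above background, ran from -0.23 (without B41KO replicate 2) to 0.56. Besides *Angptl7*, *Angptl1* met the rule on the authors' values (-0.54) and with the filter on dim probes (-0.53, fewer probes tested), and *Angptl6* with normexp (-0.55), without B41KO replicate 3 (-0.55) and with no fold threshold, so that 2 members were called in each of these. With samples left out, 1 to 2 were.

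The replicate numbers gave no clear pairing of the samples (correlations of deviations 0.13, -0.01 and 0.17 for replicates 1, 2 and 3). For replicates 1 and 3 the B41HET sample correlated best with the B41KO sample of the same number. With so few samples these values cannot exclude a pairing. With the replicate block the difference of *Angptl7* was -1.58, and 0 members were called by limma (3 at an unadjusted p below 0.05). With this block 42 probes were called, against 2883 without it, and 1 gene over the 4 related lists, against 5. Slide row 1 held the B41HET samples and B41KO replicate 1, and row 2 the other two. With row as a block, which rests on that 1 B41KO array, *Angptl7* was -1.54, *Angptl6* was -0.61 and *Angptl1* -0.73, 448 probes and 0 listed genes were called (15 at an unadjusted p below 0.05). Normexp called 1501 probes, and leaving out a sample 796 (without B41HET replicate 2) to 1524 probes and 4 to 5 listed genes. The 75th percentile shift moved the median of all probes from 0.01 to 0.13 and split the calls into 1305 higher and 1523 lower, against 971 and 1912. The causes were not tested.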
